A study of Mus musculus with 14 samples.

Results

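The endoplasmic reticulum (ER) is where a cell folds the proteins it secretes or puts in its membranes, and 37 mouse genes of that work were followed here in the heart after myocardial infarction (MI). They encode 11 chaperones and cochaperones, 7 enzymes of disulfide formation, 4 prolyl isomerases, 7 proteins of ER-associated degradation (ERAD), 3 sensors or transcription factors of the unfolded protein response (UPR) and 5 proteins of the translocon and of ER sheets. The genes were taken from a list of symbols. All 37 were found on the array through the RefSeq accession of a probe, with 47 probes, and all 37 had a probe bright enough to test, among 14870 named genes that did. Ero1l and Ero1lb are now called Ero1a and Ero1b.

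RNA was measured on 14 one-colour Agilent arrays of the ventricle of male C57BL/6 mice aged 8 weeks. In 5 samples called MI 14 days and 5 called MI 3 days the left anterior descending coronary artery had been tied off, and the 4 samples called sham had the operation without the tie. After MI the tissue came from the border zone, next to the infarct, so each MI sample mixes muscle with the cells that enter and repair the wound. The sham hearts, without the tie, had no infarct. The design text speaks of 10 ligated and 5 sham mice, it does not say when the sham hearts were taken, and its labels mention poly-T purification as well as 200 ng of total RNA, which leaves the labelled fraction unsettled. The labels do not state that each array is a separate mouse, and p-values measure the spread between these arrays.

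Proteins enter the ER through the Sec61 channel, are glycosylated, and fold with the help of chaperones, of protein disulfide isomerases that form and reshuffle disulfide bonds, and of prolyl isomerases. What fails to fold is sent back to the cytosol and degraded (ERAD). When unfolded protein builds up, the sensors IRE1 (gene Ern1), ATF6 and PERK (gene Eif2ak3) are activated, and the transcription factors that follow, XBP1, cleaved ATF6 and ATF4, switch on chaperone, ERAD and secretory genes. In the heart, cardiomyocytes use the same machinery in the sarcoplasmic reticulum, and fibroblasts that secrete collagen depend on it.

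Most of these genes were higher 3 days after MI, and fewer were at 14 days. At 14 days 16 of the 37 rose and 3 fell (limma, Benjamini-Hochberg adjusted p under 0.05 over 32261 probes, here called past the threshold), where 15.9% of all named genes were higher and 24.2% lower. At 3 days 30 rose and 4 fell, against 29.8% of all named genes higher and 40.5% lower. Between MI 14 days and MI 3 days 26 were lower and 5 higher, against 26.9% of all named genes lower and 33.6% higher. The median log2 change of the 37 was 0.24 at 14 days and 0.76 at 3 days, where the median over all named genes was -0.08 at 14 days and -0.15 at 3 days. Both MI groups were set against the same sham arrays, and in bulk tissue fewer cells of a type and less RNA per cell cannot be told apart. The 14-day count moved with the scaling: with the 75th percentile taken over the tested probes, 21 of the 37 rose at 14 days, and 53.0% of all called probes were higher, against 39.2% with the scaling used here.

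**Figure D1:**
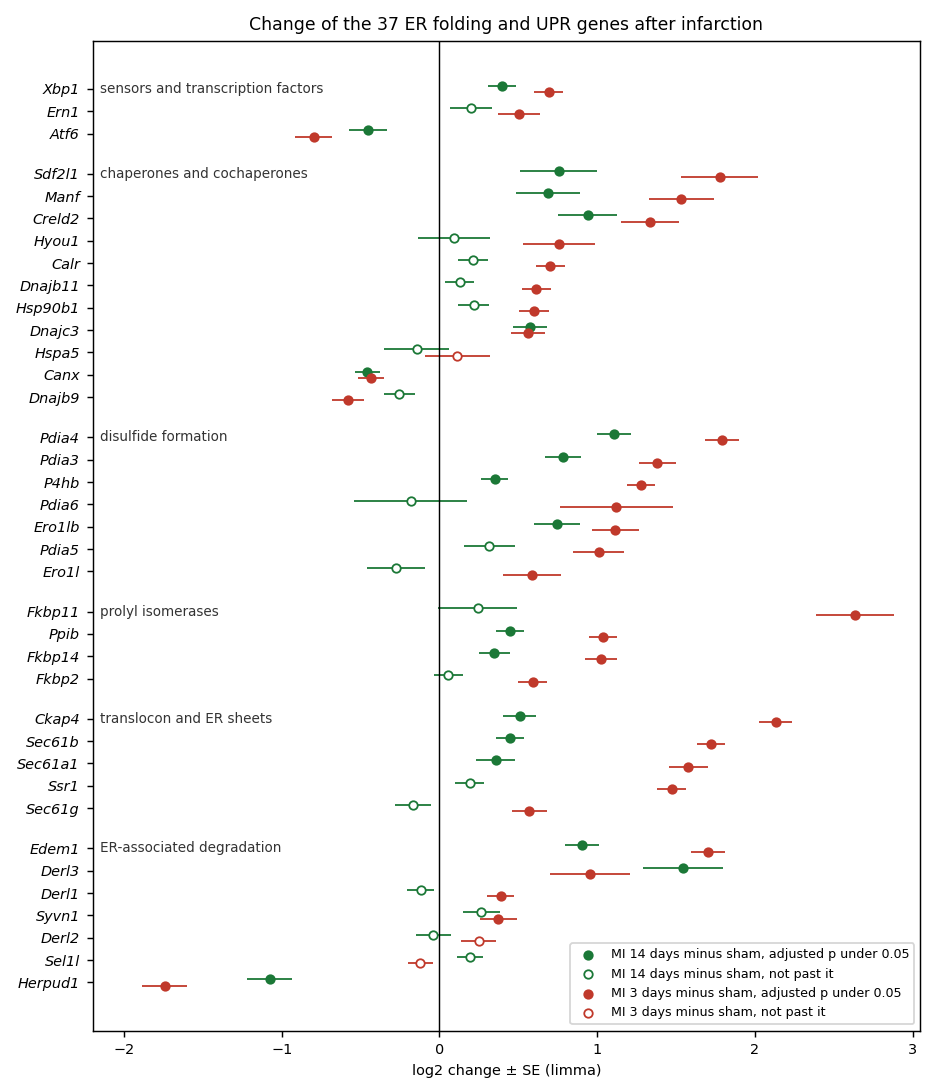
Log2 change of each of the 37 genes (x axis), with bars of ± 1 SE from limma (n = 5 arrays at MI 14 days, 5 at MI 3 days and 4 sham), ordered within the role groups. Most 3-day points lie right of 0 and right of their 14-day points. Herpud1, Atf6, Canx and Dnajb9 lie left of 0 at both times, Dnajb9 without passing the threshold at 14 days.

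A level here is the log2 intensity of a probe minus the 75th percentile of its array, so that levels can be set side by side between arrays but not between genes. The 75th percentiles were 188.6 to 443 intensity units, the 10 arrays that have scanner output showed 54.8% to 66.1% of probes well above background, and no probe was saturated. Of the 37 genes Hyou1 alone was not above background on every scanner array. MI 14 days replicate 3 had the lowest mean correlation with its own group (0.98, across probes, which are not independent), and for several chaperones below it was the lowest MI 14 days array.

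Some of the 37 genes share a sequence feature. The genes were listed as ER folding and UPR genes, and the feature is the textbook sequence of that response. Its share among them is therefore not independent of their choice. The ER stress response element is a CCAAT box, bound by the factor NF-Y, that stands 9 bases from a CCACG box bound by ATF6 (and by XBP1). It was searched on both strands as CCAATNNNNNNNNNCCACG in windows from 250 bases before to 50 after each transcript start (RefSeq, GRCm38.p6). Of 32851 windows 39 held it (0.119%), and of 11799 tested genes with a window 19 did (0.161%). A window was at hand for 32 of the 37 genes, and 10 of those held the element. The short form ATTGGNCCACG, described first in human Herp, was in 12 windows (0.037%), those of Herpud1 and Dnajb11 among them. That of Dnajb11 lies inside the transcript and is not shown. The letters TGACGTGG, an XBP1 core site, were in 222 windows (0.676%) and in none of these genes' windows. A match says only that the letters are there, and binding was not measured.

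The elements before the start are shown because they mark which of these genes carry the textbook response sequence. Each runs 5′ to 3′ on the strand named, with 10 bases on either side and the paired boxes in capitals, on GRCm38.p6.
Hspa5, chr2:34772015-34772053, plus strand: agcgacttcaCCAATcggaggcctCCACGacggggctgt
Calr, chr8:84847065-84847103, plus strand: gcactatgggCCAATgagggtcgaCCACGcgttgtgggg
Derl3, chr10:75893232-75893270, minus strand: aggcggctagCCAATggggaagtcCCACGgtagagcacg
Hsp90b1, chr10:86705628-86705666, minus strand: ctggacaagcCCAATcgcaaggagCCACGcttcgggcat
Hsp90b1, chr10:86705523-86705561, plus strand: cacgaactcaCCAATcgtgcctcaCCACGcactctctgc
Canx, chr11:50325790-50325828, minus strand: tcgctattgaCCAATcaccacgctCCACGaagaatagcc
Pdia6, chr12:17266481-17266519, plus strand: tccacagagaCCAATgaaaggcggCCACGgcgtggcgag
Ero1lb, chr13:12565672-12565710, minus strand: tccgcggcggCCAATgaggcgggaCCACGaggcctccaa
Dnajc3, chr14:118937817-118937855, plus strand: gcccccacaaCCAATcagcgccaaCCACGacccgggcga
Creld2, chr15:88819510-88819548, minus strand: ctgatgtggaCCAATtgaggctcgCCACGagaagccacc
Syvn1, chr19:6046522-6046560, plus strand: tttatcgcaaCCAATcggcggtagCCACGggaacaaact
Herpud1 (short form), chr8:94386367-94386397, plus strand: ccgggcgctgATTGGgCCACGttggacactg

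Hsp90b1, the ER member of the Hsp90 family (GRP94), carried the element in both orientations, and Hspa5 carried 1 exact copy. The 250 bases before the transcript start of each are printed for that reason, with the boxes in capitals (CGTGG and ATTGG mark the copy read on the other strand). The Hsp90b1 stretch is chr10:86705445-86705694, minus strand, and the Hspa5 stretch is chr2:34771840-34772089, plus strand.
Hsp90b1: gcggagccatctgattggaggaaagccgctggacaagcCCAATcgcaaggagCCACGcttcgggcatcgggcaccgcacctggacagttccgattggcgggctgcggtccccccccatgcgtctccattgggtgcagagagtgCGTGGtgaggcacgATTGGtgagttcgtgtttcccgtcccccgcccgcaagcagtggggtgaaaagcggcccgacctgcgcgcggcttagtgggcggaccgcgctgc
Hspa5: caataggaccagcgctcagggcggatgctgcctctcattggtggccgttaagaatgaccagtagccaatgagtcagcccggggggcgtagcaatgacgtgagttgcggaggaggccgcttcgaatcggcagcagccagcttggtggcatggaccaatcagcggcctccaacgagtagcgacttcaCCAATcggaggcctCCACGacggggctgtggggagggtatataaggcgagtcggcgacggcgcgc

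Genes with the element and genes without it rose. At 14 days 4 of the 10 with it rose and 1 fell (median log2 change 0.24), and of the 22 genes with a window and no element 10 rose and 1 fell (median 0.28). At 3 days 8 of the 10 rose, Canx fell and Hspa5 was not called (median 0.65), and of the 22 without it 18 rose, 2 fell and 2 were not called (median 1.02). These counts describe the windows at hand, and no test was made between the sets.

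**Figure D2:**
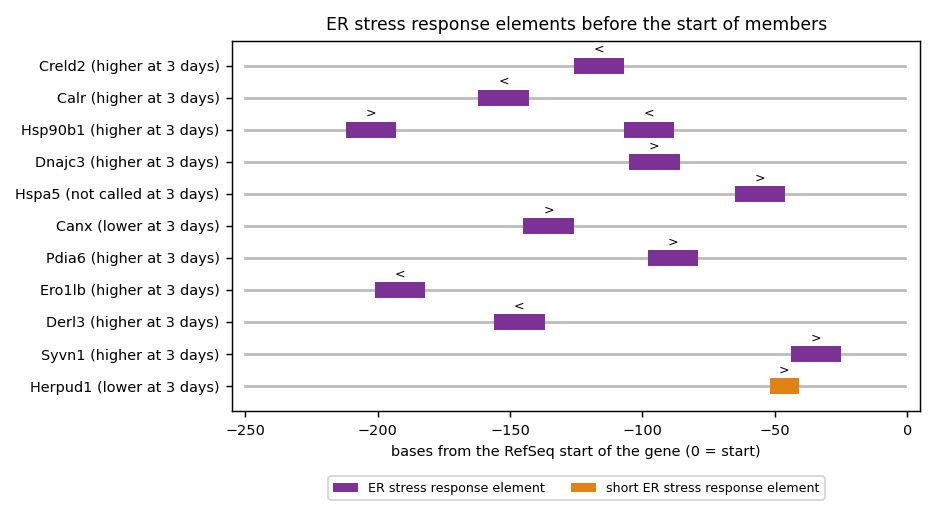
Place of each ER stress response element (purple) and of the short form (orange) in the 250 bases before the transcript start (x axis, bases), with the call at 3 days beside the gene name. An arrowhead gives the direction in which the letters read. Syvn1 holds its element nearest to the start and Hsp90b1 holds a pair that face each other.

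The chaperones divided. At 3 days 8 of 11 rose, Dnajb9 and Canx fell, and Hspa5 did not pass the threshold. The largest rise was that of Sdf2l1, which works with the cochaperone ERdj3. Its level was 0.48, 0.90, -0.60, 0.95 and 0.44 on the MI 14 days arrays, 1.38, 1.55, 1.37, 1.48 and 1.48 on the MI 3 days arrays and -0.22, -0.40, -0.55 and -0.12 on the sham arrays. All MI 3 days arrays lay above all others, and MI 14 days replicate 3 lay below every sham array. Sdf2l1 was 1.69-fold higher at 14 days (log2 change 0.76 ± 0.24 SE, adjusted p = 0.0289) and 3.43-fold higher at 3 days (1.78 ± 0.24, adjusted p = 2.07e-05). The 14-day call was lost in 9 of 26 other settings.

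Hspa5 encodes BiP, the main Hsp70 chaperone of the ER and the protein that holds the sensors inactive. It is described because it is the best known UPR target, a choice made with its values known. Its level was 6.36, 6.57, 5.30, 6.56 and 6.34 on the MI 14 days arrays, 6.48, 6.50, 6.40, 6.56 and 6.48 on the MI 3 days arrays and 6.46, 6.24, 6.33 and 6.44 on the sham arrays. The groups overlapped, and 1 array, MI 14 days replicate 3, lay about 1 log2 unit below the rest. The change was -0.14 at 14 days (95% interval -0.58 to 0.29, adjusted p = 0.626) and 0.11 at 3 days (-0.33 to 0.55, adjusted p = 0.637). Without MI 14 days replicate 3 the change was 0.09 at 14 days (adjusted p = 0.476) and 0.11 at 3 days (adjusted p = 0.213).

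Creld2, an ER protein induced by ER stress, had levels of 3.83, 4.19, 3.17, 4.32 and 3.77 at MI 14 days, 4.15, 4.29, 4.25, 4.35 and 4.23 at MI 3 days and 3.02, 2.81, 2.71 and 3.14 in sham. Both MI groups lay wholly above sham and overlapped each other. Creld2 was 1.92-fold higher at 14 days (0.94 ± 0.18, adjusted p = 0.00197) and 2.53-fold higher at 3 days (1.34 ± 0.18, adjusted p = 2.3e-05). Its element is among those shown above, as is that of Dnajc3 (P58IPK, a cochaperone of BiP), which was higher by 0.58 ± 0.11 at 14 days and 0.56 ± 0.11 at 3 days.

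Canx, the membrane-bound lectin chaperone calnexin, had levels of 4.66, 4.85, 4.61, 4.85 and 4.93 at MI 14 days, 4.86, 4.81, 4.78, 4.76 and 4.80 at MI 3 days and 5.26, 5.34, 5.12 and 5.24 in sham. Every MI array lay below every sham array. Canx was 1.37-fold lower at 14 days (-0.46 ± 0.08, adjusted p = 0.00104) and 1.35-fold lower at 3 days (-0.44 ± 0.08, adjusted p = 0.000321). Its soluble relative Calr, calreticulin, was not past the threshold at 14 days (0.21 ± 0.09, adjusted p = 0.0988) and was 1.63-fold higher at 3 days (0.70 ± 0.09, adjusted p = 1.64e-05).

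Dnajb9 encodes ERdj4, a cochaperone that brings BiP to IRE1 and helps to switch it off. Its level was 2.15, 2.44, 2.03, 2.44 and 2.26 at MI 14 days, 2.07, 1.92, 1.75, 1.95 and 1.99 at MI 3 days and 2.56, 2.59, 2.49 and 2.42 in sham. The MI 3 days arrays all lay below the sham arrays. Dnajb9 was 1.5-fold lower at 3 days (-0.58 ± 0.10, adjusted p = 0.000147), but a dimmer probe of it changed by -0.23 ± 0.12 and was not called (adjusted p = 0.122).

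The other chaperones that rose at 3 days were Manf, an ER-resident and secreted partner of BiP (1.53 ± 0.20), Hyou1, the nucleotide exchange factor GRP170 (0.76 ± 0.23), Dnajb11, the cochaperone ERdj3 (0.61 ± 0.09), and Hsp90b1 (0.60 ± 0.10). At 14 days Manf was higher too (0.69 ± 0.20, adjusted p = 0.02), while Hyou1 (0.09 ± 0.23), Dnajb11 (0.13 ± 0.09) and Hsp90b1 (0.22 ± 0.10) were not called. Manf had 1.93 on MI 14 days replicate 3, against 2.75 to 3.31 on the other MI 14 days arrays and 2.01 to 2.14 in sham.

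**Figure D3:**
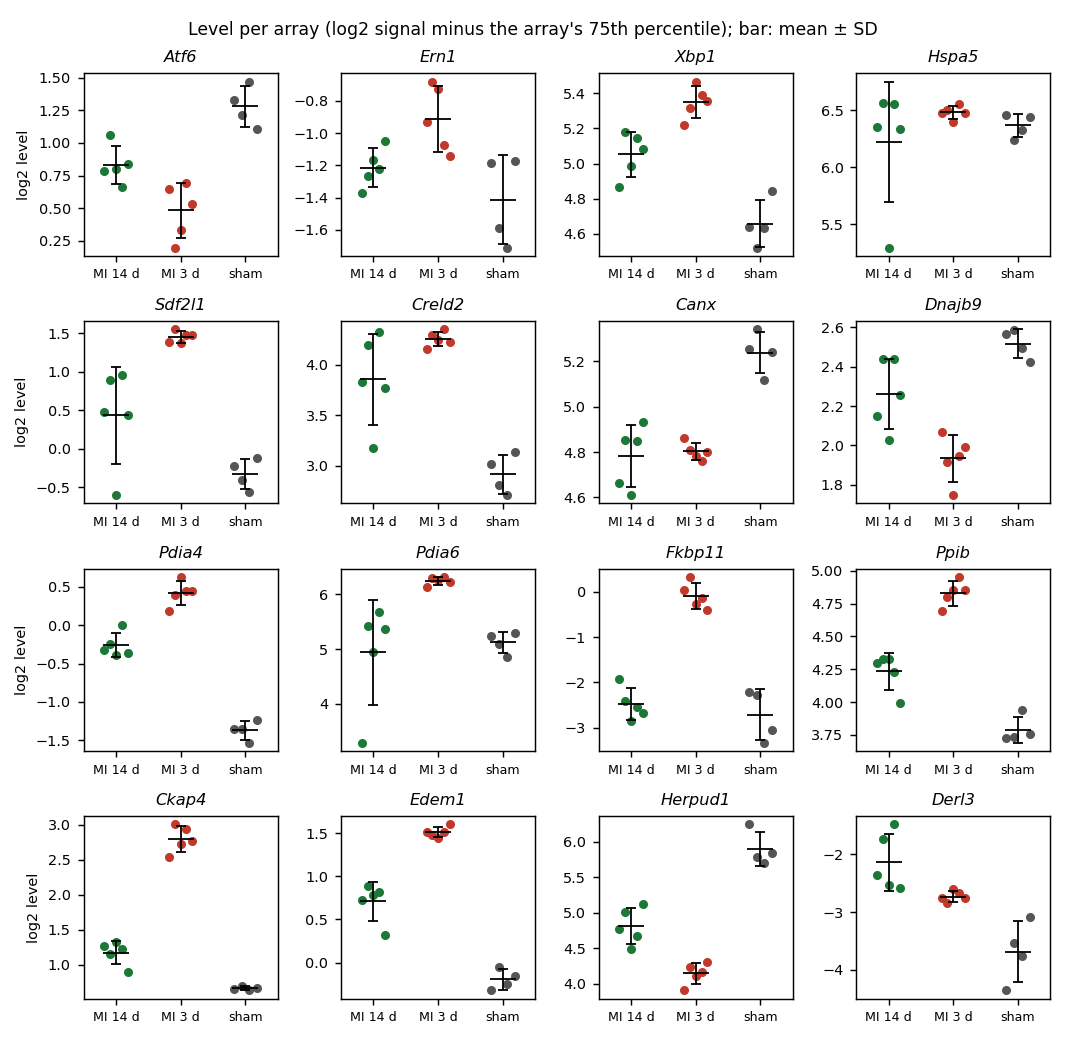
Level on each array (log2 intensity minus the array's 75th percentile) of 16 of the genes, with MI 14 days, MI 3 days and sham from left to right and the mean ± SD as bars (n = 5, 5 and 4 arrays). Fkbp11, Ckap4, Pdia4 and Edem1 peak at MI 3 days, Derl3 is highest at MI 14 days, and Herpud1 and Atf6 are highest in sham.

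All 7 genes of disulfide formation rose at 3 days, and 4 of them at 14 days. Pdia4 (ERp72, a disulfide isomerase) led at both times. Its level was -0.32, -0.25, -0.39, 0.00 and -0.35 on the MI 14 days arrays, 0.19, 0.39, 0.63, 0.45 and 0.45 on the MI 3 days arrays and -1.36, -1.35, -1.53 and -1.23 on the sham arrays. The 3 groups did not overlap. Pdia4 was 2.15-fold higher at 14 days (1.11 ± 0.11, adjusted p = 1.39e-05), 3.46-fold higher at 3 days (1.79 ± 0.11, adjusted p = 1.15e-08), and 1.61-fold lower at MI 14 days than at MI 3 days (adjusted p = 6.07e-05).

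Pdia6, the disulfide isomerase P5, had levels of 3.29, 5.42, 4.95, 5.67 and 5.36 at MI 14 days, 6.12, 6.29, 6.25, 6.31 and 6.22 at MI 3 days and 5.23, 5.10, 4.86 and 5.29 in sham. The value of 3.29, on MI 14 days replicate 1, comes from a spot that the scanner software marked as non-uniform. With it the change of Pdia6 was -0.18 ± 0.36 at 14 days (adjusted p = 0.737) and 1.12 ± 0.36 at 3 days (adjusted p = 0.0136). With marked spots left out it was 0.23 at 14 days (adjusted p = 0.23) and again 1.12 at 3 days (adjusted p = 7.82e-06). A second, dimmer probe of Pdia6 gave 0.07 ± 0.15 at 14 days and 0.96 ± 0.15 at 3 days.

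Of the other disulfide genes, Pdia3 (ERp57, the isomerase that works with calnexin and calreticulin) was higher by 0.78 ± 0.12 at 14 days and by 1.38 ± 0.12 at 3 days. P4hb, protein disulfide isomerase itself and a subunit of the collagen prolyl 4-hydroxylase, was higher by 0.35 ± 0.09 and 1.28 ± 0.09 at those times. Of the oxidases that recharge these enzymes, Ero1lb was higher at both times (0.75 ± 0.15 at 14 days and 1.12 ± 0.15 at 3 days), and Ero1l was not called at 14 days (-0.28 ± 0.18, adjusted p = 0.271) and rose at 3 days (0.59 ± 0.18). Pdia5 was not called at 14 days (0.32 ± 0.16) and was higher by 1.01 ± 0.16 at 3 days.

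All 4 prolyl isomerases rose at 3 days. Fkbp11, an ER-lumen isomerase abundant in secretory cells, had the largest change of the 37 genes. Its level was -1.92, -2.40, -2.85, -2.55 and -2.67 at MI 14 days, 0.04, 0.33, -0.26, -0.15 and -0.40 at MI 3 days and -2.21, -2.28, -3.34 and -3.05 in sham. The MI 3 days arrays stood apart, and the MI 14 days arrays overlapped with sham. Fkbp11 was not called at 14 days (0.24 ± 0.25, adjusted p = 0.492), was 6.21-fold higher at 3 days (2.63 ± 0.25, adjusted p = 6.12e-07), and was 5.25-fold lower at MI 14 days than at MI 3 days (adjusted p = 1.95e-06).

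Ppib, cyclophilin B, which takes part in collagen folding and hydroxylation, had levels of 4.30, 4.33, 4.33, 4.23 and 3.99 at MI 14 days, 4.69, 4.80, 4.85, 4.95 and 4.85 at MI 3 days and 3.72, 3.74, 3.94 and 3.76 in sham. The 3 groups did not overlap. It was 1.36-fold higher at 14 days (0.45 ± 0.09, adjusted p = 0.00215) and 2.05-fold higher at 3 days (1.04 ± 0.09, adjusted p = 2.64e-07). Fkbp14, an isomerase of procollagen chains, was higher by 0.35 ± 0.10 at 14 days and 1.03 ± 0.10 at 3 days. Fkbp2 was not called at 14 days (0.06 ± 0.09, adjusted p = 0.676) and was higher by 0.59 ± 0.09 at 3 days.

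The 7 ERAD genes went separate ways, with 4 higher, 1 lower and 2 not called at 3 days. Edem1, which helps to pick out misfolded glycoproteins for disposal, had levels of 0.73, 0.89, 0.78, 0.82 and 0.32 at MI 14 days, 1.52, 1.48, 1.45, 1.51 and 1.60 at MI 3 days and -0.32, -0.05, -0.25 and -0.16 in sham. The 3 groups did not overlap. Edem1 was 1.87-fold higher at 14 days (0.90 ± 0.11, adjusted p = 6.54e-05) and 3.26-fold higher at 3 days (1.71 ± 0.11, adjusted p = 1.89e-08).

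Herpud1 had the largest fall against sham of the 37 genes. It encodes Herp, which helps to assemble the HRD1 ubiquitin ligase complex, and is known as a gene strongly induced by ER stress. Its level was 4.78, 5.01, 4.49, 4.68 and 5.12 at MI 14 days, 3.91, 4.24, 4.12, 4.17 and 4.31 at MI 3 days and 6.24, 5.78, 5.71 and 5.84 in sham. The 3 groups did not overlap, with sham highest. Herpud1 was 2.11-fold lower at 14 days (-1.08 ± 0.14, adjusted p = 0.00014), 3.35-fold lower at 3 days (-1.74 ± 0.14, adjusted p = 1.65e-07), and higher at MI 14 days than at MI 3 days by 0.67 ± 0.13 (adjusted p = 0.000816). The fall is opposite in sign to the change of Edem1 and Sdf2l1 on the same arrays, and its window holds the short element shown above.

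Derl3, a derlin found in secretory cells, had levels of -2.37, -1.74, -2.53, -1.49 and -2.58 at MI 14 days, -2.76, -2.85, -2.61, -2.68 and -2.76 at MI 3 days and -4.35, -3.53, -3.76 and -3.09 in sham. Both MI groups lay above sham, the MI 14 days arrays highest. Derl3 was 2.91-fold higher at 14 days (1.54 ± 0.25, adjusted p = 0.000631) and 1.94-fold higher at 3 days (0.95 ± 0.25, adjusted p = 0.00449). The 3-day call was lost in 2 of 26 other settings. With normexp background correction and quantile normalization of the scanner arrays the 3-day change was 0.29 (limma, adjusted p = 0.093). With the slide as a block it was 0.80 (adjusted p = 0.135). The excess of MI 14 days over MI 3 days (0.59 ± 0.24, adjusted p = 0.0491) stood at the edge of the threshold and was lost in 15 of 26 other settings.

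Syvn1, the ligase HRD1, was 1.30-fold higher at 3 days (0.37 ± 0.12, adjusted p = 0.0114), and its partner Sel1l was not called (-0.12 ± 0.08, adjusted p = 0.205). Derl1 was higher at 3 days by 0.39 ± 0.08 on its brighter probe, and its other probe gave 0.08 ± 0.08 (adjusted p = 0.407). The 3 probes of Derl2 disagreed at 3 days, with 0.25 ± 0.11 and 0.17 ± 0.09, neither called, and -0.37 ± 0.09, called lower (adjusted p = 0.00323).

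The sensors did not move together. Ern1, the kinase and RNase IRE1, had levels of -1.37, -1.26, -1.17, -1.22 and -1.05 at MI 14 days, -0.93, -0.68, -0.73, -1.07 and -1.14 at MI 3 days and -1.18, -1.59, -1.71 and -1.18 in sham. The MI 14 days arrays overlapped with sham, and the MI 3 days arrays lay just above it. Ern1 was not called at 14 days (0.20 ± 0.13, adjusted p = 0.283) and was 1.42-fold higher at 3 days (0.50 ± 0.13, adjusted p = 0.00466).

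Xbp1, whose mRNA is the target of IRE1, had levels of 4.87, 5.18, 4.99, 5.15 and 5.08 at MI 14 days, 5.22, 5.32, 5.47, 5.39 and 5.35 at MI 3 days and 4.64, 4.52, 4.63 and 4.84 in sham. All 3 groups stood apart, in the order MI 3 days, MI 14 days, sham. Xbp1 was 1.32-fold higher at 14 days (0.40 ± 0.09, adjusted p = 0.0047) and 1.62-fold higher at 3 days (0.69 ± 0.09, adjusted p = 1.34e-05).

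Atf6, the membrane-tethered factor that is cut free under stress, had levels of 0.78, 1.06, 0.80, 0.66 and 0.84 at MI 14 days, 0.65, 0.20, 0.34, 0.70 and 0.54 at MI 3 days and 1.33, 1.21, 1.47 and 1.11 in sham. Every MI array lay below every sham array. Atf6 was 1.37-fold lower at 14 days (-0.45 ± 0.12, adjusted p = 0.0105) and 1.74-fold lower at 3 days (-0.80 ± 0.12, adjusted p = 4.6e-05). Splicing of Xbp1, cleavage of ATF6 and phosphorylation of the sensors, through which the response is switched on, were not measured.

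The 5 translocon and ER sheet genes all rose at 3 days, with a median log2 change of 1.58, the highest of the 6 role groups. Ckap4, the protein CLIMP-63 that holds ER sheets open, had levels of 1.26, 1.16, 1.32, 1.22 and 0.89 at MI 14 days, 2.54, 3.00, 2.72, 2.94 and 2.77 at MI 3 days and 0.66, 0.69, 0.63 and 0.67 in sham. The 3 groups did not overlap. Ckap4 was 1.42-fold higher at 14 days (0.51 ± 0.11, adjusted p = 0.00281) and 4.38-fold higher at 3 days (2.13 ± 0.11, adjusted p = 3.24e-09).

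The Sec61 channel genes rose unequally at 3 days. Sec61b was higher by 1.72 ± 0.09, Sec61a1, the pore, by 1.58 ± 0.12, and Sec61g by 0.57 ± 0.11. At 14 days Sec61b (0.45 ± 0.09) and Sec61a1 (0.36 ± 0.12) were past the threshold, a call that Sec61a1 lost in 11 of 26 other settings, among them without any 1 of the sham arrays, and Sec61g was not called (-0.17 ± 0.11, adjusted p = 0.274). Ssr1, the alpha subunit of the translocon-associated complex, was higher at 3 days by 1.47 ± 0.09 on its brightest probe, by 0.75 ± 0.17 on a second, and not on the third (-0.11 ± 0.08, adjusted p = 0.209).

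**Figure D4:**
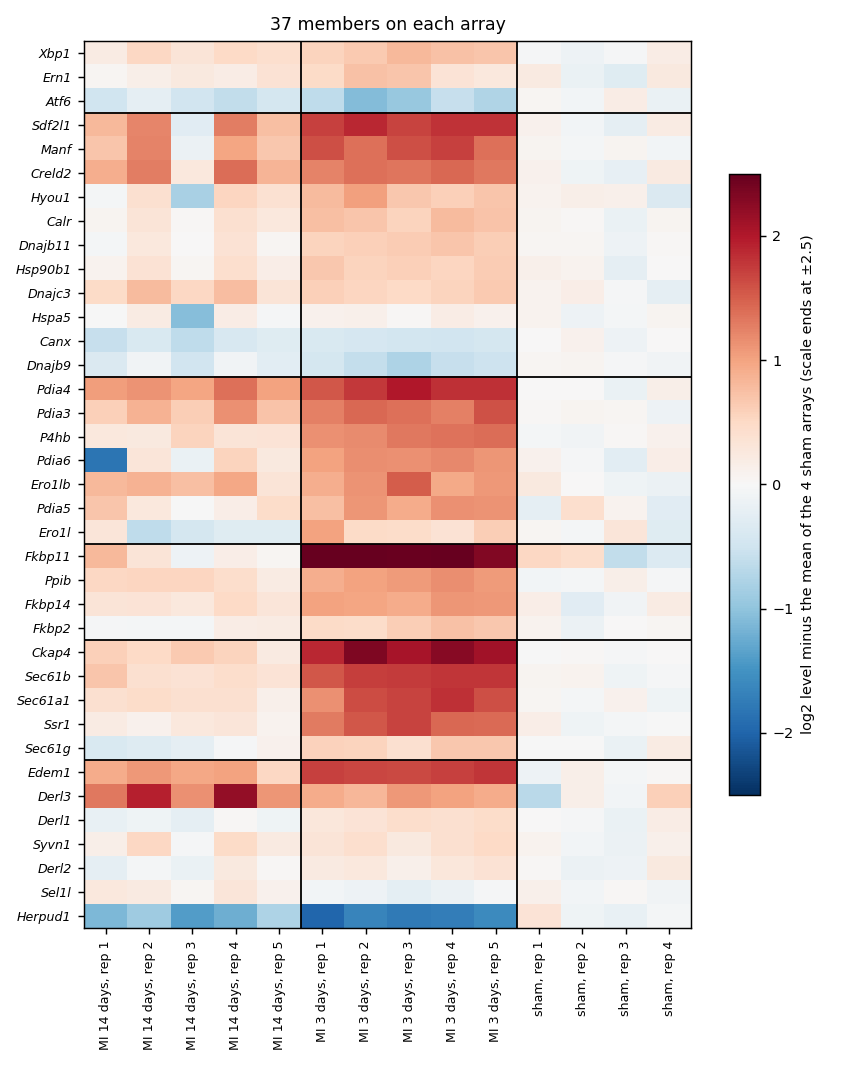
Level of each of the 37 genes on each of the 14 arrays, as the difference from that gene's mean over the 4 sham arrays (log2, colour, scale ending at ±2.5), with the MI 14 days arrays left, then MI 3 days, then sham. The MI 3 days columns are red for most genes, and MI 14 days replicate 3 is low for Hspa5, Sdf2l1, Manf and Hyou1. Herpud1, Atf6, Canx and, more faintly at MI 14 days, Dnajb9 are blue in both MI groups.

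Most of the genes that had risen at 3 days were lower at MI 14 days than at MI 3 days. All 7 disulfide genes, all 4 isomerases and all 5 translocon and sheet genes were lower at MI 14 days than at MI 3 days, as were 6 of 11 chaperones, 3 of 7 ERAD genes and Xbp1. The largest of these falls were of Fkbp11 (-2.39 ± 0.23), Ckap4 (-1.62 ± 0.10), Pdia6 (-1.30 ± 0.34, or -0.89 with marked spots left out), Ssr1 (-1.28 ± 0.09), Sec61b (-1.27 ± 0.08) and Sec61a1 (-1.22 ± 0.12), each on its brightest probe. The dimmer probes of Ssr1 did not share its fall, one giving -0.31 ± 0.16 (adjusted p = 0.114) and the other being called higher at MI 14 days (0.37 ± 0.07, adjusted p = 0.000744). That of Sec61b gave -0.69 ± 0.07. The calls of Ero1lb (-0.37 ± 0.14) and Derl2 (-0.29 ± 0.10) were lost in 12 and 11 of 26 other settings, 4 of the 7 disulfide genes were called with the slide as a block, and a dim probe of Derl2 was called higher at MI 14 days (0.295 ± 0.087, adjusted p = 0.0108). Higher at MI 14 days were Herpud1, Derl3, Sel1l (0.31 ± 0.08), Dnajb9 (0.33 ± 0.09) and Atf6 (0.35 ± 0.11). Dnajc3 (0.01, 95% interval -0.20 to 0.23) and Canx (-0.02, -0.19 to 0.14) were not called between the times. On the scanner arrays alone, and with the slide as a block, none of the 5 higher genes was called, and 22 and 18 of the 26 lower ones were. Over all tested probes the higher calls went from 10551 to 6982 and 4767 in these settings, and the lower calls from 7396 to 5406 and 4362. MI 3 days has 2 scanner arrays.

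Other genes of the same pathway were taken as lists that hold none of the 37. Of all named genes 15.9% were higher and 24.2% lower at 14 days, and 29.8% higher and 40.5% lower at 3 days. The counts of each list are to be read beside these shares. Of 22 genes of the PERK arm and other UPR regulators, 7 rose and 2 fell at 14 days (median 0.18), and 13 rose and 5 fell at 3 days (median 0.31). Creb3l3, a membrane-tethered factor known from liver, was below background on all sham arrays and was at least 9.04-fold higher at 3 days. At 14 days the figure was 1.84-fold, with 3 of 4 scanner arrays above background, so it is no strict bound. Creb3l3 entered the test only through MI 3 days, where it is high, so no p-value is given. The rises counted above include Creb3l3 at both times. Atf3, a stress-induced factor, was higher by 0.85 ± 0.17 at 14 days and by 2.34 ± 0.17 at 3 days. Creb3l2, a tethered factor of secretory cells, rose by 1.27 ± 0.16 and 1.33 ± 0.16, and Nupr1, a stress-induced nuclear protein, by 2.15 ± 0.25 and 0.94 ± 0.25. These 4 are the largest changes of the list.

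The PERK arm itself is described for its role, with its values known. Eif2ak3 (PERK) was higher at 14 days (0.51 ± 0.10, adjusted p = 0.00235) and at 3 days (0.75 ± 0.10, adjusted p = 2.04e-05). Atf4, translated when PERK is active, was not called at 14 days (0.08 ± 0.11) and was 0.32 ± 0.11 higher at 3 days (adjusted p = 0.0171), a call that was lost in 3 of 26 other settings, among them without sham replicate 3 (adjusted p = 0.0611). Ddit3, the death-related factor CHOP, was not called at 14 days (0.19 ± 0.12, adjusted p = 0.241) and fell at 3 days (-0.73 ± 0.12, adjusted p = 0.000108).

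Of 33 other ER folding enzymes tested, 13 rose and 4 fell at 14 days (median 0.12), and 21 rose and 8 fell at 3 days (median 0.45). The disulfide isomerase Txndc5 was higher by 1.03 ± 0.15 at 14 days and 1.75 ± 0.15 at 3 days. Genes of collagen handling among the largest changes were Serpinh1, the collagen chaperone HSP47 (0.89 ± 0.12 at 14 days and 1.43 ± 0.12 at 3 days), Fkbp10 (0.53 ± 0.12 and 1.73 ± 0.12) and the cyclophilin Ppic (1.29 ± 0.14 and 1.43 ± 0.14). Cdnf, a relative of Manf, was not called at 14 days (-0.40 ± 0.17) and fell by 1.90 ± 0.17 on the log2 scale at 3 days (adjusted p = 3.88e-07), while Manf itself rose.

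Of 24 other ERAD genes tested 2 rose and 8 fell at 14 days (median -0.17), and 10 rose and 10 fell at 3 days (median -0.03). Over all named genes 15.9% were higher and 24.2% lower at 14 days, and 29.8% higher and 40.5% lower at 3 days. The share of falls in this list at 3 days was near that of all genes. The ligases Rnf139 (-0.54 ± 0.08 at 14 days and -0.98 ± 0.08 at 3 days), Marchf6 (-0.40 ± 0.12 and -0.92 ± 0.12) and Rnf5 (-0.45 ± 0.10 and -0.75 ± 0.10) fell at both times, as did Ngly1, which strips glycans from exported proteins (-0.46 ± 0.15 and -0.75 ± 0.15). At 14 days the call of Marchf6 was lost in 10 of 26 other settings and that of Ngly1 in 10. Edem2, a relative of Edem1, was not called at 14 days (0.22 ± 0.17) and rose by 0.97 ± 0.17 at 3 days.

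Of 33 genes of signal peptide cleavage, translocation and N-glycosylation, 4 rose and 4 fell at 14 days (median -0.07), and 21 rose and 5 fell at 3 days (median 0.47). With quantile normalization 8 rose and 1 fell at 14 days, and 25 rose and 1 fell at 3 days. The oligosaccharyltransferase subunits Stt3a (1.68 ± 0.10) and Ostc (1.39 ± 0.10) and the signal peptidase subunit Spcs3 (1.38 ± 0.13) led at 3 days. At 14 days Stt3a was higher by 0.54 ± 0.10, while Ostc (0.21 ± 0.10) and Spcs3 (0.30 ± 0.13) were not called. The translocation protein Tram2 was higher by 0.66 ± 0.13 at 14 days and 1.01 ± 0.13 at 3 days. Sec61a2, the second pore gene, fell by 0.58 ± 0.10 and 0.62 ± 0.10 on the log2 scale at 14 and 3 days, opposite in sign to Sec61a1.

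Of 30 genes of export from the ER and retrieval, 6 rose and 6 fell at 14 days (median -0.05), and 17 rose and 3 fell at 3 days (median 0.31). Over all named genes 15.9% were higher and 24.2% lower at 14 days, which the shares of this list were near, and 29.8% and 40.5% at 3 days. With the 75th percentile taken over the tested probes 7 rose and 2 fell at 14 days. Kdelr3 and Kdelr2, receptors that bring escaped chaperones back from the Golgi, were higher at 14 days by 1.31 ± 0.13 and 0.41 ± 0.11, and at 3 days by 2.39 ± 0.13 and 2.15 ± 0.11. Their relative Kdelr1 was not called at 3 days (0.07 ± 0.10, adjusted p = 0.549). The cargo receptors Lman2 and Tmed3 rose at 3 days by 1.34 ± 0.09 and 1.18 ± 0.13, and Sar1b, a small GTPase of vesicle budding, fell by 1.08 ± 0.12 on the log2 scale.

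**Figure D5:**
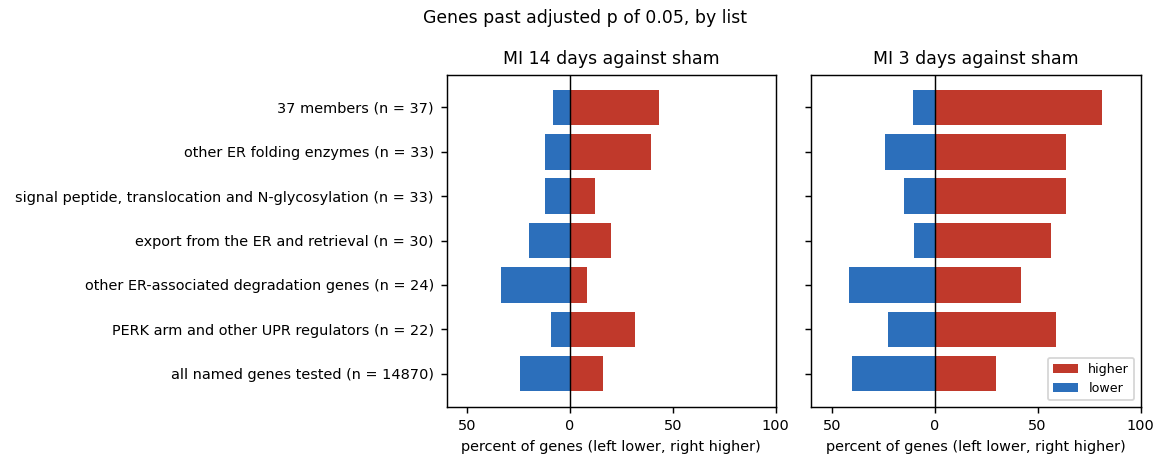
Share of tested genes higher (to the right) and lower (to the left) than sham in each list, as percent, with MI 14 days in the left panel and MI 3 days in the right, and all named genes as the last row. At 3 days the 37 genes have the highest share of higher genes, and the other ERAD genes are split between higher and lower.

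Markers of several cell types in the tissue differed between the groups, and those of others did not pass the test. Of 7 cardiomyocyte markers 3 were lower at 14 days and all 7 at 3 days. Their summed level was 4413 to 6251 at MI 14 days, 2669 to 3149 at MI 3 days and 4494 to 5656 in sham (in multiples of the array's 75th percentile). Of 6 fibroblast markers all were higher at 14 days and 4 at 3 days, with sums of 1109 to 1595 at MI 14 days, 840 to 1149 at MI 3 days and 418 to 446 in sham. Of these Dcn was lower at 3 days. Of 5 macrophage markers 2 were higher at 14 days, and 4 higher and 1 lower at 3 days, with sums of 196 to 224 at MI 14 days, 166 to 219 at MI 3 days and 171 to 226 in sham. Of 5 neutrophil markers none was called at 14 days, and 4 were higher and 1 lower at 3 days, with sums of 214 to 238 at MI 14 days, 191 to 271 at MI 3 days and 208 to 228 in sham. At 3 days the median log2 change was 1.60 for the macrophage markers and 3.43 for the neutrophil markers. A sum follows its brightest markers, so these sums can stay flat while most markers rise. The 4 cell cycle markers were higher at 3 days and not called at 14 days, with sums of 1.33 to 3.50 at MI 14 days, 17.1 to 22.9 at MI 3 days and 0.672 to 1.88 in sham. Of 5 endothelial, 4 smooth muscle, 2 red blood cell and 3 atrial markers, 0, 0, 0 and 0 were higher and 1, 0, 0 and 3 lower at 14 days, and 1, 2, 0 and 0 were higher and 1, 2, 0 and 3 lower at 3 days. The atrial markers had a median log2 change of -3.43 at 14 days and -4.58 at 3 days. Their sums were 1.99 to 5.87 at MI 14 days, 1.48 to 2.29 at MI 3 days and 4.84 to 29.4 in sham. Of these markers Cxcr2 and Top2a entered the test only through MI 3 days, and Sln and Myl7 only through sham. The counts and medians above include them, and for them the filter favoured high values in those groups. Of all named genes 15.9% were higher and 24.2% lower at 14 days, and 29.8% higher and 40.5% lower at 3 days. The part of these marker shifts in the changes of the 37 genes was not tested.

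Plasma cells express Derl3, Fkbp11, Creld2 and Sdf2l1 highly, so their markers are given beside those genes. Of 6 tested, 2 were higher at 14 days, and 1 was higher and 3 lower at 3 days, with sums of 1.99 to 5.58 at MI 14 days, 2.51 to 3.84 at MI 3 days and 1.28 to 1.59 in sham. Among the 6 are Jchain and Cd79a, which entered the test only through MI 14 days, so the filter favoured high values there. Jchain, the joining chain of antibodies, was below background on both MI 3 days scanner arrays and above it on 2 of the 4 sham arrays. Its fall from sham to MI 3 days is therefore not given as a fold. Jchain was at least 14.9-fold higher at MI 14 days than at MI 3 days, a bound that covers 2 of the 5 MI 3 days arrays. It entered the test only through MI 14 days, where it is high, so no p-value is given. Mzb1, the BiP partner of plasma cells, was not called at 14 days (-0.33 ± 0.18) and fell by 1.57 ± 0.18 on the log2 scale at 3 days. Sdc1, which is also made by other cells, rose by 1.87 ± 0.18 at 14 days and 3.00 ± 0.18 at 3 days, and Tnfrsf17 was below background. At 3 days the sum lay above sham although the median log2 change of the 6 markers was -0.51, and Sdc1 had the highest change. The 6 also hold Prdm1, Irf4 and Cd79a. The fall of Jchain at 3 days was lost in 10 of 25 other settings that tested it.

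The slide that an array lay on could be read from the files for 10 arrays on 3 slides, and differed in part with the groups. Within the slides that hold both groups, 19 of 19 called genes kept their direction at 14 days, 34 of 34 at 3 days and 31 of 31 between the times, on 1 to 3 arrays a group that also entered the fit. The same count was not made over all called genes. With the slide as a block 10 of the 16 rises and all 3 falls were called at 14 days, those of P4hb, Sdf2l1, Manf, Creld2, Xbp1 and Fkbp14 being lost. At 3 days 24 of the 30 rises and all 4 falls were called, those of Pdia6, Hyou1, Syvn1, Derl3, Ern1 and Ero1l being lost. Over all tested probes the slide block took the higher calls from 4118 to 2136 at 14 days and from 8219 to 6245 at 3 days. It took the lower calls from 6374 to 2940 at 14 days and from 12823 to 10129 at 3 days.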

How the data were processed

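The 14 samples were grouped by their labels. The deposited value table holds one linear intensity per probe and array. On the 10 arrays with scanner output it equals the background-subtracted, detrended signal of Agilent Feature Extraction 10.7.3.1, per the file headers, for every single-spot probe (relative tolerance 1e-05). The submitters' processing notes list limma, with no role given. Log2 of the intensity deposited by the authors was taken here, minus each array's 75th percentile. The tested probes (32261 of 55482) are those that all scanner arrays of some group showed well above background. Among the lists and markers, Creb3l3, Cxcr2 and Top2a passed this filter only through MI 3 days. Jchain and Cd79a passed it only through MI 14 days, and Sln and Myl7 only through sham. For such genes the filter favours high values in that group. One limma 3.58.1 fit (R 4.3.3; lmFit, contrasts.fit, eBayes, two-sided) held all 3 groups, with Benjamini-Hochberg adjustment over all tested probes. The probe with the highest mean level stood for a gene.

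Members were found through RefSeq accessions (RefSeq gene table, GRCm38.p6), which also gave symbols for 27144 probes. Where a probe was below background on all scanner arrays of a group, the fold is a bound against the higher of the lowest signal above background and the probe's own, as a mean over that group's scanner arrays. Promoter windows and their sequences are from RefSeq, GRCm38.p6. The normexp alternative used the median signal and the median background in place of the mean signal, and features of the proteins were not analysed here.

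The members and the gene lists were chosen with earlier results of these data known. Genes given array by array are all sensors and, per role, those with the largest rise and fall past the threshold in each comparison. From each other list up to 3 genes with the largest change at each time are named. Cd68 and Hbb-b1 of the marker lists had no tested probe. The procedure was tested on simulated data. Alternatives covered scaling, background, filters, slide, replicate number, probe choice, marked spots and each array left out. The number of arrays limits the precision.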

Additional observations from a re-analysis of the deposited data

Results flagged for a closer look

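Of 111 groups of arrays (37 genes in 3 groups), 9 held an array far from the rest by Dixon's criterion, which chance gives in about 1 of 20. These were Hspa5 on MI 14 days replicate 3 (level 5.30), Edem1 (0.32) and Sec61a1 (3.71) on MI 14 days replicate 5, Sec61b on MI 14 days replicate 1 (4.83) and on MI 3 days replicate 1 (5.68), Calr (4.40), Dnajb11 (2.85) and Ppib (3.94) on sham replicate 3, and Hyou1 on sham replicate 4 (-3.80). Hspa5, low on MI 14 days replicate 3, is not past the threshold with or without that array.

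The change from sham at 14 days differed from that at 3 days for 31 genes, tested as MI 14 days minus MI 3 days, in which the shared sham arrays cancel. It was smaller or lower at 14 days in 26. The differences were -2.39 for Fkbp11, -1.62 for Ckap4, -1.30 for Pdia6, -1.28 for Ssr1, -1.27 for Sec61b, -1.22 for Sec61a1 and -1.02 for Sdf2l1. They were -0.93 for P4hb, -0.86 for Ero1l, -0.85 for Manf, -0.80 for Edem1, -0.74 for Sec61g, -0.69 for both Pdia4 and Pdia5, -0.68 for Fkbp14 and -0.67 for Hyou1. They were -0.60 for Pdia3, -0.59 for Ppib, -0.54 for Fkbp2, -0.51 for Derl1, -0.49 for both Calr and Dnajb11, -0.38 for Hsp90b1, -0.37 for Ero1lb, -0.30 for Xbp1 and -0.29 for Derl2. The positive differences were 0.67 for Herpud1, 0.59 for Derl3, 0.35 for Atf6, 0.33 for Dnajb9 and 0.31 for Sel1l.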

How the results depend on the processing

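No called change of the 37 genes turned its sign in 26 other settings (changes not called did, such as those of Hspa5 and Pdia6 at 14 days). In all of these settings 26 of the 34 calls at 3 days, 11 of 19 at 14 days and 18 of 31 between the times held. The same count was not made over all called genes, so it cannot set the 37 apart from them. Leaving out 1 array at a time gave 30 to 31 rises and 4 falls at 3 days, 14 to 17 rises and 3 to 4 falls at 14 days, and 4 to 5 genes higher and 24 to 27 lower at MI 14 days than at MI 3 days. Without MI 14 days replicate 3, 17 rose and 3 fell at 14 days. With the slide as a block 10 rose at 14 days, and 0 were higher at MI 14 days than at MI 3 days. Over all tested probes the slide block took the higher calls from 4118 to 2136 at 14 days and from 10551 to 4767 between the times. On the scanner arrays alone 0 of the 37 were higher between the times (6982 probes were). With normexp background correction and quantile normalization of those arrays 1 was (5045 probes were), and 2 genes fell at 3 days, Canx and Dnajb9 being lost. With these steps together the median change of all probes at 3 days was 0.14 higher. These settings rest on 2 MI 3 days arrays, and what else moved the counts was not tested. Testing dim probes too raised the median between the times by 0.12. Quantile normalization gave 22 rises at 14 days, and 4580 of all tested probes were higher, against 4118 with the scaling used here. Leaving out marked spots, an alternative chosen after seeing the data, changed no call of the 37. Replicate numbers are shared between groups. Deviations of arrays with the same number correlated by -0.135 to 0.225, against -0.272 to 0.189 for other pairs. Such overlapping ranges cannot exclude that the numbers pair the arrays, and the labels do not state a pairing. With the replicate number as a block 31 rose and 4 fell at 3 days, 15 rose and 3 fell at 14 days, and 5 were higher and 26 lower between the times. Counts of the other lists at 3 days stayed within 1.5 times in all settings for genes that rose, except other ERAD (5) and export (11) with the slide block. At 14 days the rises with the slide block were 2 for the PERK list, 3 for folding enzymes and 3 for export, and the falls of other ERAD genes were 3 to 10 over all settings.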
